A study of Mus musculus with 4 samples.

Results

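M1-2 and NHRI-HN2 are mouse oral squamous cell carcinoma (OSCC) lines from different tumors, and neither formed tumors when placed in the mouth of B6 mice, the strain they come from. They were compared gene by gene as the deposited log2 value of M1-2 minus that of NHRI-HN2, with the probe sets of a gene averaged. A gene was counted only where its level was 8 or more in at least 1 of the 2 lines, which left 7189 of 19505 genes with a symbol. Within the counted genes, those at 8 or more in both lines and under 2 log2 units apart were called shared, and those 2 or more log2 units apart were called higher in the line with the larger value. The description below follows hand-written lists of epithelial and mesenchymal genes through these groups.

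The tumors arose in the tongue of C57BL/6 mice given 4-nitroquinoline 1-oxide (4-NQO), a DNA-damaging carcinogen, and arecoline, an alkaloid of areca nut. M1-2 was cultured directly from one such tumor. NHRI-HN2 was obtained by sphere culture, which selects cells able to grow unattached, from M2-3, the line of another tumor. The series also holds M2-3 itself and NHRI-HN1, the sphere-selected subline of M1-2 and the only line of the 4 with tumors in the mouth of B6 mice, and their values are given beside the pair. All 4 lines were grown in DMEM with fetal bovine serum, and total RNA of each was hybridized to 1 Affymetrix Mouse Clariom S array. M1-2 and NHRI-HN2 thus differ at once in tumor of origin and in sphere selection, which cannot be told apart from this pair alone. With 1 array a line there is no replicate check, and no difference below has a test.

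Epithelial cells are held together by cadherin junctions and desmosomes, rest on a basement membrane through hemidesmosomes, and are stiffened by keratins. In the epithelial-mesenchymal transition (EMT), transcription factors of the Snail, Zeb and Twist families lower these genes while vimentin, N-cadherin, contractile proteins and matrix proteins become more abundant. Carcinoma cells often stop between both ends of this program, and such cells are called hybrid. Basal cells of the oral mucosa, from which OSCC arises, carry the keratin pair Krt5 and Krt14 and depend on p63, the product of Trp63.

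The arrays stood at about the same level. Their medians lay between 4.53 and 4.75 and their lower quartiles between 3.02 and 3.16, so that a gene near 3 was close to the dimmest signals and its distance from a bright value depends on the background. The scale was taken as log2, but the highest values, up to 19.77, exceed the usual log2 of a scanner signal, so a unit may stand for another ratio of RNA than 2. Of the 7189 counted genes, 5082 (70.7%) were shared, 561 (7.8%) were higher in M1-2, 792 (11%) were higher in NHRI-HN2, and 754 (10.5%) reached 8 in 1 line only while lying under 2 units apart. The median difference over the counted genes was -0.14. Of the genes that differed, 41.5% were higher in M1-2, a share that became 49.3% with quantile normalization and 52.4% with the arrays brought to a common 75th percentile, so no excess of either direction over the whole array should be read from these counts.

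**Figure D1:**
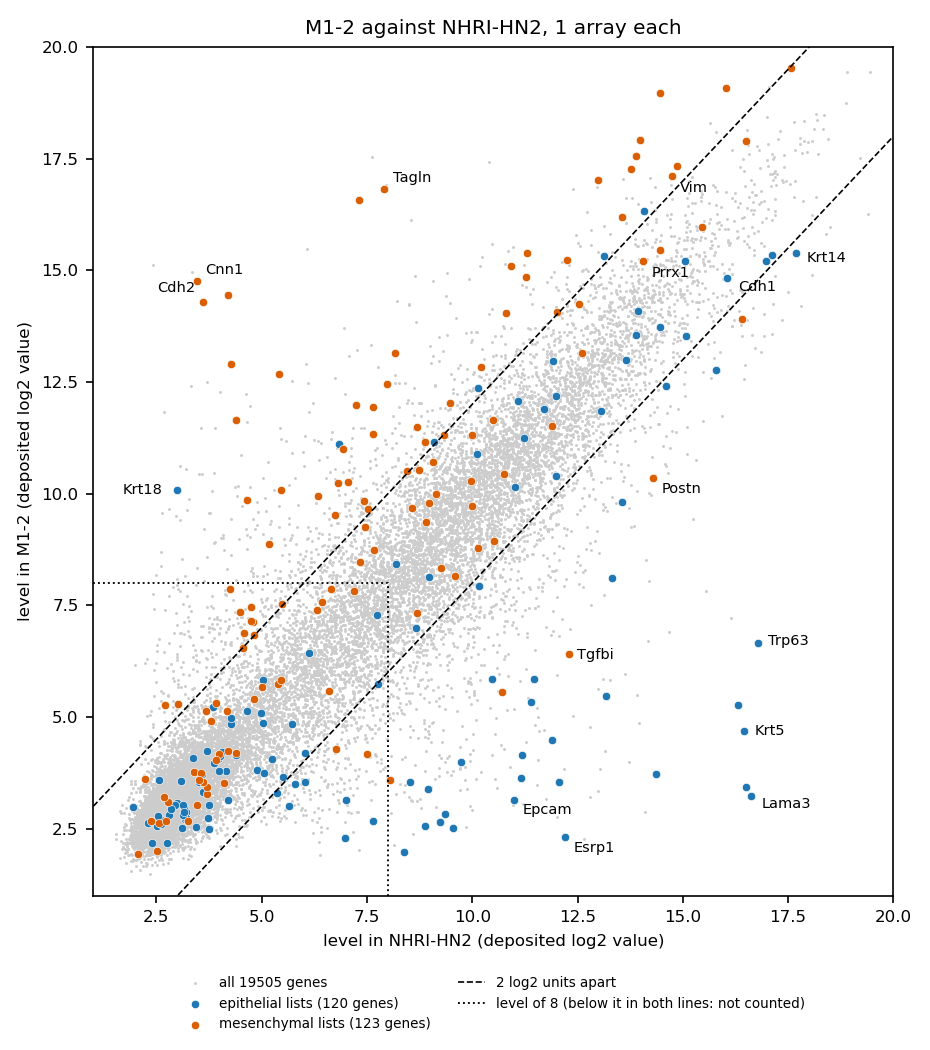
Level of each gene in M1-2 (vertical axis) against NHRI-HN2 (horizontal axis), as deposited log2 values from 1 array each; blue points are the 120 measured epithelial list genes, orange points the 123 measured mesenchymal list genes, and gray points all 19505 genes. The 30 counted epithelial genes higher in NHRI-HN2, such as Krt5, Trp63 and Lama3, lie below the lower dashed line and the 43 counted mesenchymal genes higher in M1-2, such as Cnn1 and Tagln, above the upper one, while Cdh1 and Prrx1 sit between the lines, 2 log2 units either side of equality.

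The epithelial genes that differed were mostly higher in NHRI-HN2 and the mesenchymal genes that differed mostly higher in M1-2. Of 57 counted epithelial genes, 30 (52.6%) were higher in NHRI-HN2, 6 (10.5%) were higher in M1-2 and 20 (35.1%) were shared, against 11%, 7.8% and 70.7% of all counted genes. Of 76 counted mesenchymal genes, 43 (56.6%) were higher in M1-2, 5 (6.58%) were higher in NHRI-HN2 and 24 (31.6%) were shared. The median difference was -2.22 for the epithelial and 2.4 for the mesenchymal genes. A further 63 epithelial and 47 mesenchymal genes were measured but lay below 8 in both lines, as did 12316 of all 19505 genes. Another 20 of the 263 listed genes were not analysed here. In bulk RNA, fewer cells of a type and less RNA per cell cannot be told apart, nor can a culture of cells that each hold both programs from a mixture of epithelial and mesenchymal cells.

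The name hybrid was checked by the number of genes at 8 or more on each array, beside the share of all 19505 genes at this level. M1-2 had 31 of the 120 measured epithelial genes (25.8%) and 72 of the 123 mesenchymal genes (58.5%) at 8 or more, against 32.1% of all genes. NHRI-HN2 had 55 (45.8%) and 51 (41.5%), against 33.7%. By these counts the epithelial share of M1-2 was under that of all genes and the mesenchymal share of NHRI-HN2 was not far above it, so the counts alone do not show that either line was hybrid. What the lines held of each class is given gene by gene below. NHRI-HN1 had 12 epithelial (10%) and 68 mesenchymal genes (55.3%) at 8 or more, and M2-3 had 59 (49.2%) and 27 (22%), against 32% and 33.8% of all genes.

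**Figure D2:**
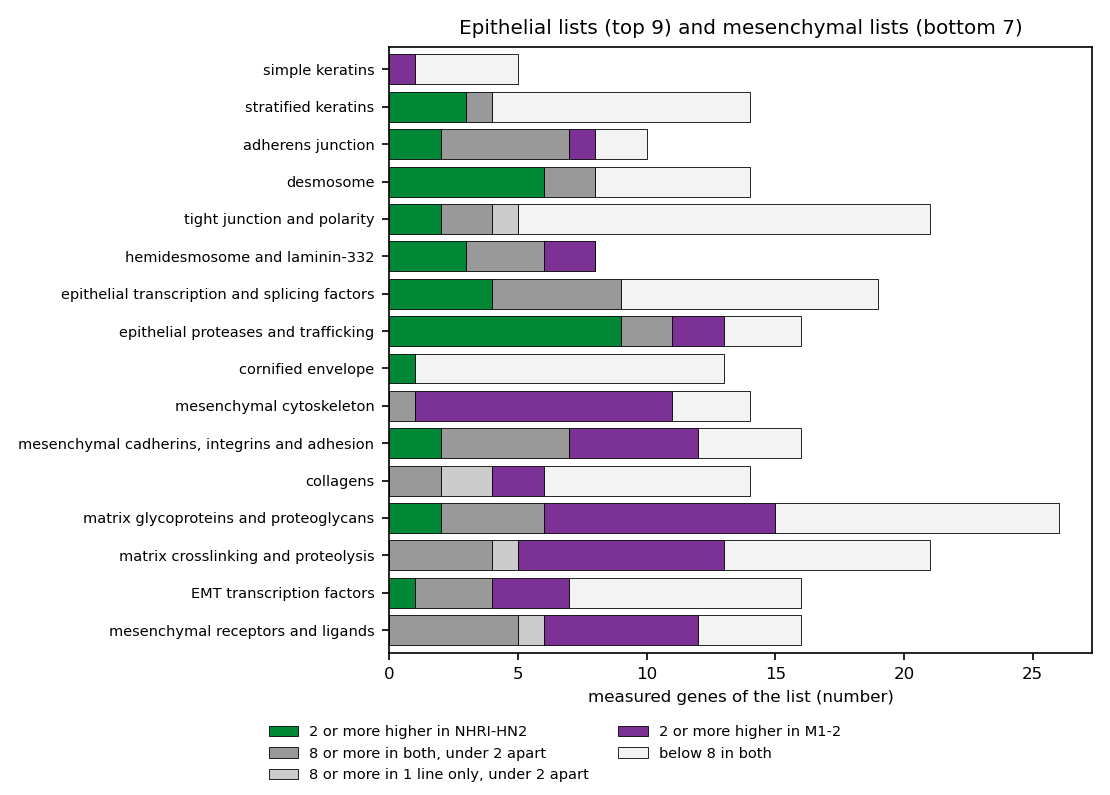
Number of measured genes (horizontal axis) of each of 9 epithelial and 7 mesenchymal lists, split by color into genes 2 or more log2 units higher in NHRI-HN2 (green) or M1-2 (purple), shared genes (dark gray), genes at 8 or more in 1 line only and under 2 apart (light gray) and genes below 8 in both (near white). Of 14 desmosome genes 6 were green and 6 near white, of 14 mesenchymal cytoskeleton genes 10 were purple, and the hemidesmosome list held all 3 kinds.

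The 20 shared epithelial genes covered cell-cell junctions, integrins and transcription factors. Cdh1, encoding E-cadherin, the adhesion molecule of epithelial junctions, was 14.82 in M1-2 and 16.06 in NHRI-HN2, with 16.31 in M2-3 and 3.71 in NHRI-HN1. Its cytoplasmic partners Ctnna1 and Ctnnd1, alpha-catenin and p120 catenin, lay between 11.92 and 12.97 in the pair. The adhesion molecule Nectin2 was 8.42 and 8.18, and Afdn, the nectin-binding protein afadin, was 8.14 and 8.97. Pkp1, a plakophilin of the desmosomal plaque, was 15.20 and 15.06 in M1-2 and NHRI-HN2, and Perp, a desmosomal membrane protein of stratified epithelia, was 15.34 and 17.12. Like Cdh1, these 2 desmosomal genes were bright in every line except NHRI-HN1, where Pkp1 was 4.74 and Perp 3.37. Tight junction genes were represented by F11r, encoding the adhesion molecule JAM-A, at 10.14 and 11.01, and by the scaffold Tjp1 at 12.08 and 11.08.

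On the side of the basement membrane, Itgb4, the integrin chain that marks hemidesmosomes, was 13.74 in M1-2 and 14.47 in NHRI-HN2. The laminin receptor chain Itga3 was 13.55 and 13.88, and its tetraspanin partner Cd151 was 14.08 and 13.93. Krt17, a keratin found in basal cells and in activated keratinocytes, was the one stratified keratin shared by the definition used, at 13.53 and 15.07. Krt17 and Itgb4 were again dim in NHRI-HN1, at 2.48 and 5.15, while Itga3 and Cd151 were 11.54 and 12.36 there. Tns4, a focal adhesion protein of epithelia, was 15.21 in M1-2 and 16.98 in NHRI-HN2 against 3.09 in NHRI-HN1. Cd24a, a surface glycoprotein, differed least of the 20, at 11.25 and 11.22, with 3.62 in NHRI-HN1.

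Transcription factor genes, 5 in number, belonged to the shared group. Sox2, a factor of squamous progenitors and stem cells, differed least among them, at 11.90 in M1-2, 11.71 in NHRI-HN2 and 11.80 in M2-3, with 3.85 in NHRI-HN1. Pitx1, a homeobox factor of oral epithelium, was 10.89 and 10.12 in the pair and 4.69 in NHRI-HN1. The zinc finger factors Klf4 and Klf5 were 10.40 and 11.86 in M1-2 and 11.99 and 13.05 in NHRI-HN2, and Tfap2a, an AP-2 factor of surface ectoderm, was 12.99 and 13.65. Over the 20 shared genes, 19 were at 8 or more in M2-3 and 7 in NHRI-HN1. The other 13 lay below 8 in NHRI-HN1, Nectin2 only narrowly at 7.87, and 10 of the 20 lay below 5 there. The same shares over all shared genes were not computed.

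**Figure D3:**
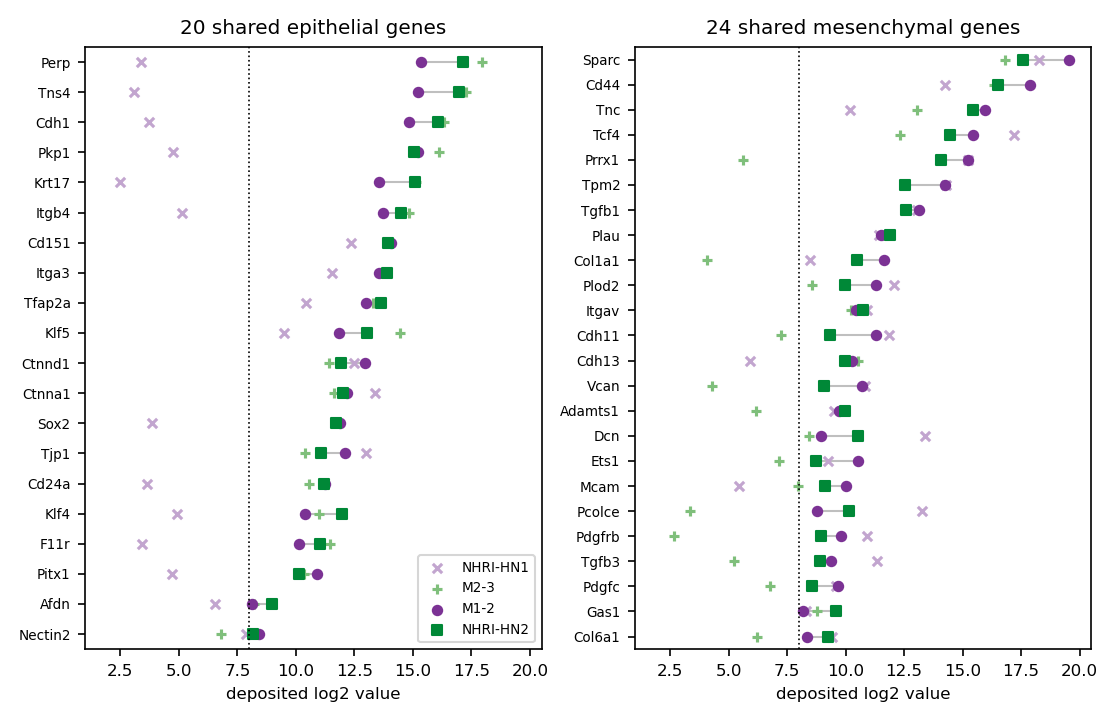
Deposited log2 values (horizontal axis) of the 20 shared epithelial genes (left) and the 24 shared mesenchymal genes (right) in M1-2 (purple circles), NHRI-HN2 (green squares), NHRI-HN1 (violet crosses) and M2-3 (green plus signs); the dotted line marks a level of 8. In the left panel 13 of the crosses lie below 8 and in the right panel 12 of the plus signs do, while circles and squares lie under 2 units apart throughout.

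The epithelial genes higher in NHRI-HN2 spanned 2.18 to 13.39 log2 units, with a median difference of -6.555, and 23 of the 30 differed by more than 5. In M1-2, 18 of them lay below 5 and 5 were at 8 or more. The same shares over all 792 genes higher in NHRI-HN2 were not computed, so these counts are not read as a trait of the epithelial genes. Basement membrane attachment gave the largest differences. Lama3, the alpha chain of laminin-332, was 3.24 in M1-2 and 16.63 in NHRI-HN2, with 3.13 in NHRI-HN1 and 16.57 in M2-3. Col17a1, the transmembrane collagen of hemidesmosomes, was 3.43 and 16.51 in the pair, with 4.15 in NHRI-HN1 and 17.30 in M2-3. Lamb3, the beta chain of laminin-332, was 8.11 and 13.31. Both lines of the first tumor were thus dim for Lama3 and Col17a1 and both lines of the second bright, whereas the integrin Itgb4, part of the same structure, was bright in M1-2 as well.

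Desmosomal cadherins followed. Dsc3 was 5.27 in M1-2 and 16.32 in NHRI-HN2, and Dsg3, a desmoglein of oral mucosa, was 3.72 and 14.37. Dsc2, Dsg2 and Dsg1b lay between 1.97 and 3.55 in M1-2 and between 8.38 and 12.05 in NHRI-HN2. These 5 desmosomal cadherins were dim in M1-2, and each was counted only through its level in NHRI-HN2, so their number is not a result about the list. Dsp, the desmoplakin that ties the plaque to keratin filaments, was 12.42 and 14.60, and Jup, the plakoglobin shared by desmosomes and adherens junctions, was 12.77 and 15.78. These plaque genes remained well above 8 in M1-2, next to Pkp1 and Perp, although Dsp was under 2 units apart once the arrays were brought to a common 75th percentile.

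Among keratins, Krt5, the type II keratin of basal cells, was 4.68 in M1-2 and 16.46 in NHRI-HN2, with 3.09 in NHRI-HN1 and 17.24 in M2-3. Its type I partner Krt14 was 15.38 and 17.70, with 3.39 in NHRI-HN1 and 18.76 in M2-3. M1-2 therefore had Krt14 without Krt5 at a comparable brightness, a combination that no other line showed. Krt16, a keratin of activated keratinocytes, was 5.46 and 13.17.

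The regulators of this program were split in the same way. Trp63 was 6.66 in M1-2 and 16.78 in NHRI-HN2, with 4.78 in NHRI-HN1 and 17.00 in M2-3. Esrp1 and Esrp2, the splicing factors that set epithelial isoforms, were 2.31 and 5.86 in M1-2 against 12.21 and 10.48 in NHRI-HN2. Grhl2, a Grainyhead-like factor that maintains epithelial junction genes, was 2.52 and 9.55. The 4 regulators that differed were thus low in M1-2 beside the 5 that were shared, and each of the 4 was counted only through NHRI-HN2.

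Of the surface and secretory genes, Epcam, an adhesion molecule of epithelia, was 3.15 in M1-2 and 11 in NHRI-HN2. Rab25, a GTPase of epithelial recycling, was 4.49 and 11.89. The membrane protease St14, matriptase, and its inhibitors Spint1 and Spint2 lay between 2.55 and 3.64 in M1-2 and between 8.52 and 11.16 in NHRI-HN2. S100a14, Lad1, Fxyd3, Cdcp1, Lsr and Dmkn were also higher in NHRI-HN2, at differences of -7.03 to -5.55, and Sfn, the 14-3-3 protein of stratified epithelia, and Patj, a polarity scaffold, differed less. Sfn was 9.82 and 13.55, and Patj was 7.94 and 10.16, under 2 units apart at a common 75th percentile.

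**Figure D4:**
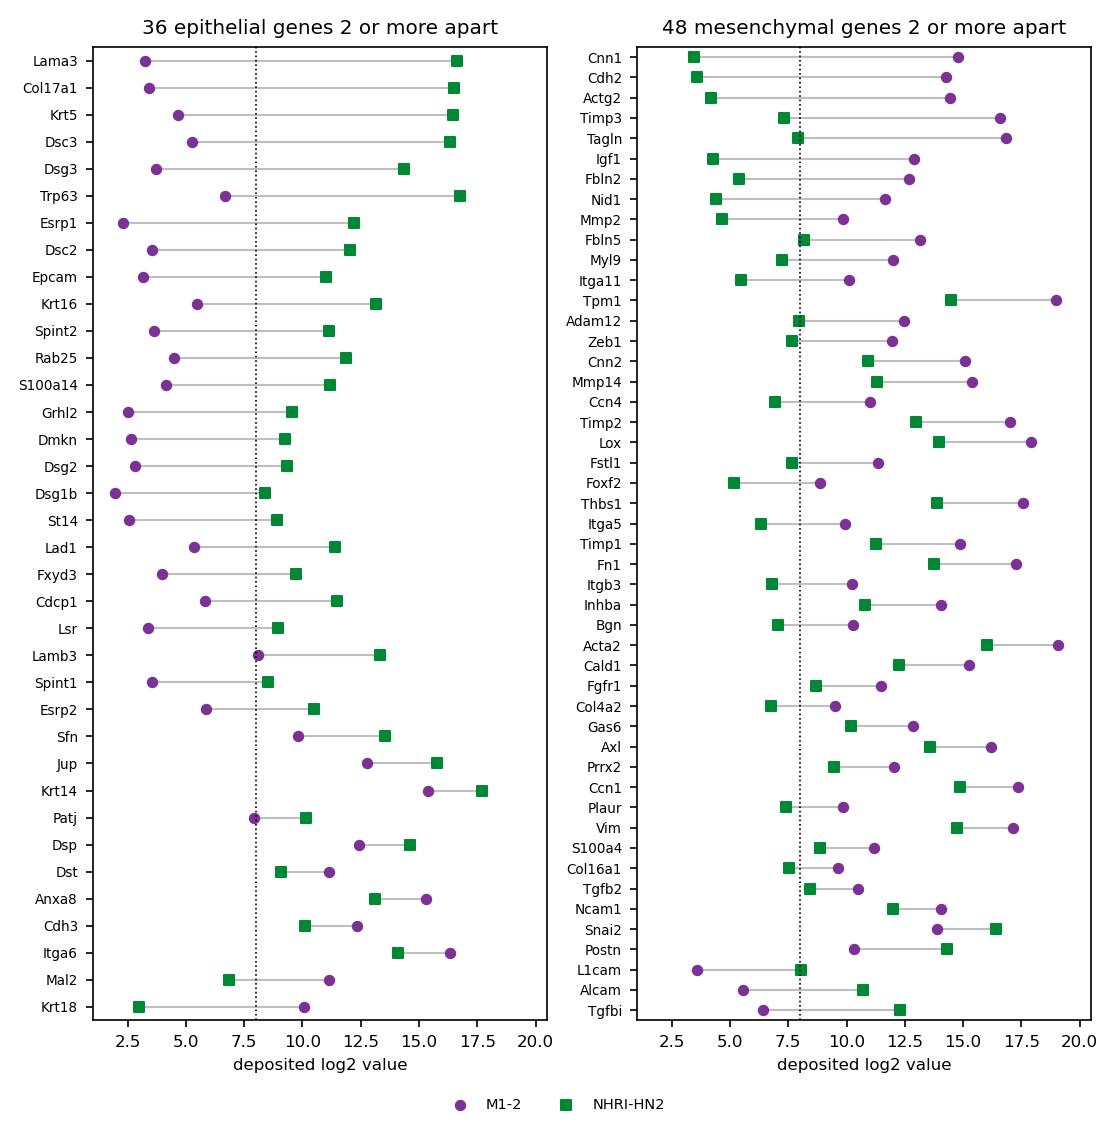
Deposited log2 values (horizontal axis) in M1-2 (purple circles) and NHRI-HN2 (green squares) of the 36 epithelial (left) and 48 mesenchymal genes (right) that lay 2 or more units apart, joined by a line and ordered by the difference; the dotted line marks a level of 8. The 30 epithelial genes at the top of the left panel were higher in NHRI-HN2, most with M1-2 far below 8, and the 43 at the top of the right panel were higher in M1-2, 21 of them with NHRI-HN2 at 8 or more.

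Promoter sequence was read for these genes because Snail and Zeb factors bind the E-box CACCTG. Promoter windows from RefSeq on GRCm38.p6, each running from 250 bases before a transcription start to 50 bases after it, were found for 17 of the 30 epithelial genes higher in NHRI-HN2 and for 30 of the 43 mesenchymal genes higher in M1-2. CACCTG, on either strand, stood in a window of 10 of these 17 epithelial genes (58.8%), of 5 of the 30 mesenchymal genes (16.7%) and of 22.1% of the 15691 measured genes that had a window. The AP-1 site TGACTCA stood in 4 of 17 (23.5%), 2 of 30 (6.67%) and 5.51%, the TEAD site GGAATG in 23.5%, 23.3% and 15.3%, and the Grainyhead-like site AACCNGTT in 11.8%, 0.0% and 2.3%. In the windows of genes that differed, 1 of 30 matches to CACCTG shared a base with a match to another of these motifs, a TGACTCA. The windows of Epcam, Rab25 and Krt5 are printed 5′ to 3′ as examples of epithelial genes dim in M1-2, with each CACCTG, or its reverse complement CAGGTG, in capitals; a match is a stretch of letters and not a shown binding site.
Epcam (chr17:87635729-87636028, plus strand): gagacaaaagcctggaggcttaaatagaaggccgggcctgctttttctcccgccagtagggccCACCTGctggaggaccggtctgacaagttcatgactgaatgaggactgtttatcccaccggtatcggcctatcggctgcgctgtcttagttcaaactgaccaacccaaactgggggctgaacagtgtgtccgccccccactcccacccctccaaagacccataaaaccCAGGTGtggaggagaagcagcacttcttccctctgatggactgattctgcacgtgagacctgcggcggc
Rab25 (chr3:88548230-88548529, minus strand): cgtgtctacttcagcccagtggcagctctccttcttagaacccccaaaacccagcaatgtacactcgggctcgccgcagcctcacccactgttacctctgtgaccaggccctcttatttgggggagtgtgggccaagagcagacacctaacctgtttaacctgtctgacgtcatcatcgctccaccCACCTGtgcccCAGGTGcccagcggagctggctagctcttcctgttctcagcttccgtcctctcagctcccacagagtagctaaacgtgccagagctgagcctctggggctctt
Krt5 (chr15:101712856-101713155, minus strand): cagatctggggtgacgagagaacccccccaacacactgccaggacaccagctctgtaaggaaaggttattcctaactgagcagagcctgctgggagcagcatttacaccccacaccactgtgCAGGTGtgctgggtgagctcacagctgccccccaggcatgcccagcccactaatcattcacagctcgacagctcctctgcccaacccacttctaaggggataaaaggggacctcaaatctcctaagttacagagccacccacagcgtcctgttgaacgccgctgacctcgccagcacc
The Epcam and Rab25 windows hold 2 matches each and the Krt5 window holds 1.

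The other 6 epithelial genes that differed were higher in M1-2. Krt18, a keratin of simple epithelia, was 10.08 in M1-2 and 2.98 in NHRI-HN2, with 3.21 in NHRI-HN1 and 3.49 in M2-3. Mal2, a protein of apical transport, was 11.12 and 6.84, with 2.43 in NHRI-HN1 and 5.36 in M2-3. M1-2 was the highest of the 4 lines for both genes. Cdh3, encoding P-cadherin, was 12.36 and 10.13, the annexin Anxa8 was 15.32 and 13.12, the integrin chain Itga6 was 16.33 and 14.08, and Dst, a plakin of hemidesmosomes and of the cytoskeleton, was 11.16 and 9.10. These 4 were bright in both lines and differed by 2.06 to 2.25 units.

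The 24 shared mesenchymal genes comprised transcription factors, adhesion molecules, matrix proteins and growth factor genes. Prrx1, a homeobox factor of mesenchyme that also drives EMT, was 15.22 in M1-2 and 14.06 in NHRI-HN2, with 15.24 in NHRI-HN1 and 5.63 in M2-3. Tcf4, an E-protein that represses Cdh1, was 15.46 and 14.47 and was above 12 in all 4 lines. Pdgfrb, the receptor of platelet-derived growth factor on mesenchymal cells, was 9.79 and 8.97, with 10.92 in NHRI-HN1 and 2.65 in M2-3. Prrx1 and Pdgfrb were therefore bright in NHRI-HN2 and dim in its parent.

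The matrix genes of the shared group behaved in part alike. Col1a1, the main chain of collagen I, was 11.66 in M1-2 and 10.50 in NHRI-HN2, with 8.48 in NHRI-HN1 and 4.07 in M2-3. Vcan, the proteoglycan versican, was 10.72 and 9.08 against 4.30 in M2-3, and Pcolce, an enhancer of procollagen processing, was 8.78 and 10.14 against 3.34. Sparc, a collagen-binding matrix protein, and Tnc, tenascin-C, were bright in all 4 lines, at 19.54 and 17.56 for Sparc and 15.97 and 15.45 for Tnc in the pair. Dcn, the proteoglycan decorin, was 8.93 and 10.51. Over all 24 genes, 22 were at 8 or more in NHRI-HN1 and 12 in M2-3, which is the reverse of the shared epithelial genes. The same shares over all 5082 shared genes were not computed, so how unusual these counts are is not known.

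Among the remaining shared mesenchymal genes, Cd44, the hyaluronan receptor, was 17.89 in M1-2 and 16.50 in NHRI-HN2. Cdh11, a cadherin of mesenchymal cells, was 11.32 and 9.34, and Tgfb1, a ligand that induces EMT, was 13.15 and 12.60. Mcam, Cdh13, Itgav, Tpm2, Col6a1, Plau, Adamts1, Plod2, Tgfb3, Pdgfc, Gas1 and Ets1 completed the group, at 8.16 to 14.25 in M1-2 and 8.57 to 12.53 in NHRI-HN2. Tgfb1, Cd44 and Itgav were at 10 or more in all 4 lines, so their presence in this pair sets it apart from neither relative.

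The mesenchymal genes higher in M1-2 differed by 2.05 to 11.31 units, with a median of 3.7. Among the 43, 9 differed by more than 5. NHRI-HN2 was itself at 8 or more for 21 of the 43, against 5 of 30 for M1-2 among the epithelial genes higher in NHRI-HN2. For those 21 genes the difference was thus one of degree, with both lines bright. The same share over all genes that differed was not computed, so it is not read as a trait of the mesenchymal genes.

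Of 11 counted contractile and cytoskeletal genes, 10 were higher in M1-2, against 7.8% of all counted genes, and Tpm2 was shared. Cnn1, encoding the smooth muscle protein calponin, was 14.77 in M1-2 and 3.46 in NHRI-HN2, with 3.76 in NHRI-HN1 and 3.88 in M2-3. Actg2, the enteric smooth muscle actin, was 14.44 and 4.19, with 3.33 in NHRI-HN1 and 2.44 in M2-3. Tagln, the actin-binding protein transgelin, was 16.83 and 7.91, with 8.62 in NHRI-HN1 and 4.15 in M2-3. These 3 genes were far brighter in M1-2 than in the other 3 lines, its own subline included.

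Acta2, alpha-smooth muscle actin, and Vim, vimentin, differed less. Acta2 was 19.09 in M1-2 and 16.02 in NHRI-HN2, with 15.74 in NHRI-HN1 and 8.30 in M2-3. Vim was 17.12 and 14.74, with 17.99 in NHRI-HN1 and 6.90 in M2-3. For both genes M2-3 was the one line far below the rest, and NHRI-HN2 stood nearer to M1-2 than to its parent. The tropomyosin Tpm1 was 18.98 and 14.47, the myosin light chain Myl9 was 11.99 and 7.25, and Cnn2, Cald1 and S100a4 were higher in M1-2 by 4.16, 3.00 and 2.28.

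Contractile genes are known targets of serum response factor, which binds the CArG box, and this motif was searched after the expression values had been seen. It stood in a window of 2 of the 8 cytoskeletal genes with one (25%), Myl9 and Cnn2, in 0 of the 17 epithelial genes higher in NHRI-HN2 and in 1.7% of all measured genes with a window. The Myl9 window is printed with its CArG box in capitals and its 1 match to CACCTG, as CAGGTG, left in lower case.
Myl9 (chr2:156775214-156775513, plus strand): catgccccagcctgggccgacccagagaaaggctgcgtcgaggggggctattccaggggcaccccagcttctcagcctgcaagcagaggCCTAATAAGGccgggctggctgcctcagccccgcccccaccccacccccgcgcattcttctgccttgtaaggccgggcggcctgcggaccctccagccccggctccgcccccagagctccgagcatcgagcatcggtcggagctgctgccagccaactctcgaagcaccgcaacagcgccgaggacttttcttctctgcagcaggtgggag

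Among the adhesion genes, Cdh2, encoding N-cadherin, the cadherin gained in EMT, was 14.28 in M1-2 and 3.60 in NHRI-HN2, with 12.38 in NHRI-HN1 and 4.20 in M2-3. M1-2 thus held E-, P- and N-cadherin transcripts together, while NHRI-HN2 held E- and P-cadherin with Cdh2 near the dimmest signals. The integrin chains Itga5, Itga11 and Itgb3 lay between 9.95 and 10.23 in M1-2 and between 5.46 and 6.81 in NHRI-HN2. Ncam1, a neural and mesenchymal adhesion molecule, was 14.06 and 12.01.

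In the matrix, Fbln2, a fibulin of elastic fibers, was 12.67 in M1-2 and 5.40 in NHRI-HN2, and Nid1, the basement membrane linker nidogen, was 11.65 and 4.39. Fn1, fibronectin, was 17.26 and 13.77, with 16.20 in NHRI-HN1 and 8.72 in M2-3. Thbs1, thrombospondin, was 17.55 and 13.90, and the secreted signaling protein Ccn1 was 17.34 and 14.87. Fibronectin, thrombospondin and Ccn1 were bright in both lines, unlike Fbln2 and Nid1. Fbln5, Ccn4, Fstl1 and Bgn were higher in M1-2 by 5.00, 4.07, 3.70 and 3.23, and the collagens Col4a2 and Col16a1 by 2.78 and 2.12.

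In the list of matrix crosslinking and proteolysis, 8 of 13 counted genes were higher in M1-2, against 7.8% of all counted genes, 4 were shared and none was higher in NHRI-HN2. Timp3, an inhibitor of metalloproteinases held in the matrix, was 16.57 in M1-2 and 7.32 in NHRI-HN2, with 3.64 in NHRI-HN1 and 3.10 in M2-3. Its relatives Timp1 and Timp2 were 14.86 and 17.02 in M1-2 and 11.28 and 12.99 in NHRI-HN2. Mmp2, a gelatinase, was 9.85 and 4.66, and Mmp14, the membrane enzyme that activates it, was 15.38 and 11.31. Lox, which crosslinks collagen, was 17.91 and 13.98, with 13.10 in NHRI-HN1 and 5.04 in M2-3. Adam12 and the urokinase receptor Plaur were also higher in M1-2, by 4.48 and 2.42, while Plau, urokinase itself, was shared at 11.52 and 11.89.

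EMT transcription factors did not move as one list. Zeb1, a repressor of epithelial genes, was 11.95 in M1-2 and 7.65 in NHRI-HN2, with 13.37 in NHRI-HN1 and 4.08 in M2-3. Foxf2 and Prrx2, factors of mesenchyme, were 8.87 and 12.04 in M1-2 and 5.17 and 9.47 in NHRI-HN2. Snai2, encoding Slug, a Snail family factor that basal epithelial cells also express, was 13.90 in M1-2 and 16.40 in NHRI-HN2, with 15.09 in NHRI-HN1 and 16.27 in M2-3. Of 16 measured genes of this list, 9 lay below 8 in both lines, as did 12316 of all 19505 genes. Of the 7 counted, 3 were higher in M1-2 and 3 were shared, against 7.8% and 70.7% of all counted genes. Snai2 was the 1 higher in NHRI-HN2, against 11%, and its level was high in all 4 lines.

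The signaling genes higher in M1-2 were led by Igf1, insulin-like growth factor 1, at 12.91 in M1-2 and 4.26 in NHRI-HN2, with 7.89 in NHRI-HN1 and 3.94 in M2-3. The receptor tyrosine kinase Axl was 16.19 and 13.56, its ligand Gas6 was 12.84 and 10.21, and the receptor Fgfr1 was 11.49 and 8.68. Inhba, the activin subunit, was 14.05 and 10.81, and Tgfb2 was 10.51 and 8.44. Apart from Igf1, the members of this group were thus at 8 or more in both lines.

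The mesenchymal genes higher in NHRI-HN2 numbered 5, with a median difference of -4.45. Postn, the matrix protein periostin, was 10.34 in M1-2 and 14.30 in NHRI-HN2, with 3.16 in NHRI-HN1 and 6.55 in M2-3. Tgfbi, a matrix protein induced by TGF-beta, was 6.40 and 12.30, with 5.25 in NHRI-HN1 and 15.55 in M2-3. Postn was thus highest in NHRI-HN2 of the 4 lines, and Tgfbi highest in its parent. The adhesion molecules Alcam and L1cam were 5.55 and 3.59 in M1-2 and 10.70 and 8.04 in NHRI-HN2, with Alcam at 13.46 in NHRI-HN1. Snai2 completed the group.

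The values in the relatives were set beside these differences. In 29 of the 57 counted epithelial genes both lines of the second tumor, M2-3 and NHRI-HN2, lay at least 2 units above both M1-2 and NHRI-HN1, against 4.51% of all counted genes (324 of 7189), and the opposite held for 1, against 2.56% (184 of 7189). Of the 76 mesenchymal genes, 15 were at least 2 units higher in both lines of the first tumor than in both of the second, and 2 were lower in this way. Since these patterns include the difference between M1-2 and NHRI-HN2 itself, they add only the levels of the relatives. Of the 43 mesenchymal genes higher in M1-2, 31 were at 8 or more in NHRI-HN1 and 12 in M2-3, shares not computed over all genes higher in M1-2. Each tumor is represented by 1 culture and its subline, so tumor and culture cannot be told apart, and the part of sphere selection was not tested.

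Members close to the limits show how the definitions cut. Ncam1 and Dst, at differences of 2.05 and 2.06, were the nearest inside, and Sparc and Cdh11, at 1.98 each, the nearest outside. By level, L1cam at 8.04 and Dsg1b at 8.38 were just counted, while Foxf1, a factor of mesenchyme at 7.87 in M1-2 and 4.25 in NHRI-HN2, and Col5a2, a fibrillar collagen chain at 7.87 and 6.64, were not. Llgl2, Col6a2, Col6a3, Loxl1 and Wnt5a, named after their values were seen, were the 5 listed genes at 8 or more in 1 line only and under 2 units apart. Another 20 listed genes, 8 epithelial and 12 mesenchymal, lay 2 or more units apart below 8 in both lines. They included Twist1, an EMT factor at 7.35 in M1-2 and 4.48 in NHRI-HN2, and Cldn8, a claudin at 2.68 and 7.64, both named after their values were seen.

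Markers of other cell types gave the context of these counts. All measured markers of skeletal muscle (12), endothelium (7), immune cells (8), melanocytes and Schwann cells (6) and adipocytes (5) lay below 8 in both lines, with the highest level 6.03. Of all 19505 genes, 12316 lay below 8 in both lines as well. In the relative NHRI-HN1, 8 of the 12 skeletal muscle markers were at 8 or more, up to 14.35. The same held for 0 of the 14 keratinocyte markers, against 32% of all genes on that array. Of 13 measured fibroblast markers, 8 lay below 8 in both lines. This was near the share of all genes, 12316 of 19505, so it is not read as a trait of the list. Of the 5 counted, Col1a1, Dcn, Pdgfrb and Prrx1 were shared (80%, against 70.7% of all counted genes). Postn was higher in NHRI-HN2 (20%, against 11%). The list ranged from 1.94 to 15.22 in M1-2, from 2.07 to 14.30 in NHRI-HN2 and from 2.17 to 8.42 in M2-3. Col1a1, Pdgfrb, Prrx1 and Postn are among the mesenchymal genes bright in NHRI-HN2 and dim in M2-3 described above, and the part of fibroblasts in the cultures was not tested. Of 14 keratinocyte markers, 13 were at 8 or more in NHRI-HN2 and 7 in M1-2, against 33.7% and 32.1% of all genes. In M1-2, Epcam, Col17a1 and Dsg3 lay at 3.15 to 3.72, while Krt14, Perp, Cdh1, Itgb4 and Krt17 lay at 13.53 to 15.38.

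Lists outside the EMT axis, 10 in all, were set beside these results. Sterol synthesis was higher in M1-2 in 13 of 17 counted genes, against 7.8% of all counted genes, with a median difference of 2.5 against -0.14. Hsd17b7, an enzyme of cholesterol synthesis, was 15.09 in M1-2 and 10.18 in NHRI-HN2, Sqle, squalene epoxidase, was 13.08 and 9.06, and Fdps, farnesyl diphosphate synthase, was 12.36 and 8.62. M1-2 was the highest of the 4 lines for all 3. MHC class I presentation was higher in M1-2 in 6 of 8 counted genes, again against 7.8%, among them the immunoproteasome subunits Psmb8, at 11.23 and 5.45, and Psmb10, at 9.0 and 5.23, and the heavy chain H2-K1, at 15.62 and 12.52 with 9.66 in M2-3. Of 18 interferon-stimulated genes only 4 were counted, all of them shared, as were 70.7% of all counted genes. The other 14 lay below 8 in both lines, as did 12316 of all 19505 genes.

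Of 24 replication and mitosis genes, 12 were higher in NHRI-HN2 and 12 were shared, against 11% and 70.7% of all counted genes, with a median difference of -2.03. Aurkb, a mitotic kinase, was 9.25 in M1-2 and 13.77 in NHRI-HN2, Birc5, its partner survivin, was 8.48 and 12.48, and Mcm3, a subunit of the replicative helicase, was 6.91 and 10.76. M1-2 was the lowest of the 4 lines for each of them. Of 6 counted cell cycle inhibitors, 2 were shared, against 70.7% of all counted genes. Another 2 were higher in M1-2 and 1 was higher in NHRI-HN2, against 7.8% and 11%. Cdkn1a, encoding p21, was 5.83 in M1-2 and 13.28 in NHRI-HN2, and Cdkn2a, encoding p16 and p19ARF, was 10.34 and 6.53. Here too M1-2 stood alone, since Cdkn1a was 14.36 in NHRI-HN1 and 12.94 in M2-3, and Cdkn2a was 2.31 and 4.94. The other inhibitor higher in M1-2, Cdkn2b, encoding p15, was 8.02 and 4.89.

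Of 15 measured chemokine genes, 10 lay below 8 in both lines, as did 12316 of all 19505 genes. The 5 counted were higher in NHRI-HN2, against 11% of all counted genes. Ccl2, which attracts monocytes, was 6.91 in M1-2 and 14.67 in NHRI-HN2, with 7.47 in NHRI-HN1 and 10.55 in M2-3. The neutrophil attractants Cxcl5 and Cxcl1 were 8.52 and 4.98 in M1-2, 14.13 and 10.57 in NHRI-HN2, and 2.44 and 4.41 in M2-3. These 3 chemokines were therefore brighter in NHRI-HN2 than in its parent. Of 11 measured ErbB receptor and ligand genes, 8 lay below 8 in both lines, against the same 12316 of 19505 genes. Of the 3 counted, 1 was shared and 2 were higher in NHRI-HN2, against 11% of all counted genes. Egfr was 6.38 and 8.90, and Nrg1, a ligand of ErbB3 and ErbB4, was 11.82 and 14.31. Of 5 counted imprinted genes, 3 were higher in M1-2, against 7.8% of all counted genes, Igf2r was shared and Plagl1 was higher in NHRI-HN2, at 7.87 and 11.38, the last 2 genes being named after their values were seen. The median difference of the 13 measured imprinted genes was -0.03. Mest was 17.53 and 7.61, Grb10, an adaptor that restrains insulin signaling, was 11.46 and 3.56, and Igf2, insulin-like growth factor 2, was 12.23 and 4.62. All 14 ribosomal protein genes and the Y-linked genes Eif2s3y and Uty were shared, with a median difference of -0.55 for the ribosomal genes.

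**Figure D5:**
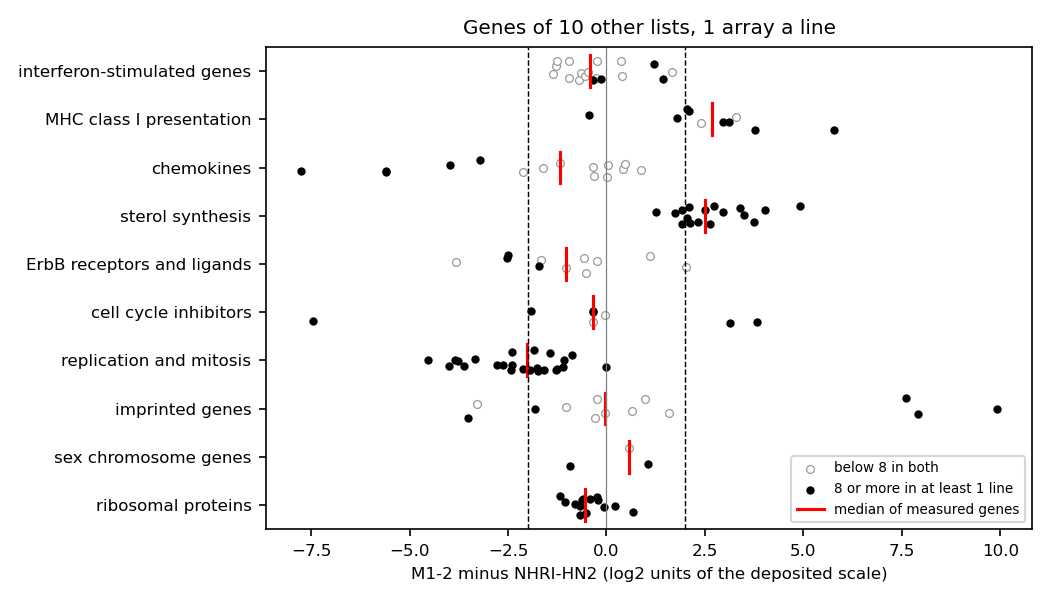
Difference between M1-2 and NHRI-HN2 in log2 units (horizontal axis) for every measured gene of 10 other lists, with filled points for genes at 8 or more in at least 1 line, open points for genes below 8 in both, red bars for list medians and dashed lines at 2 units. Sterol synthesis and MHC class I genes lie to the right, replication and mitosis genes and the counted chemokines to the left, and ribosomal protein genes lie within the dashed lines.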

How the data were processed

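Total RNA of 4 mouse OSCC lines was hybridized to Affymetrix Mouse Clariom S arrays, 1 for each line. The authors processed the scans with Partek Genomics Suite 7 and deposited 1 value per probe set and array, taken here as log2 expression from the range of the values. None of the sources used here states the base of the log or how background and normalization were handled. With 1 array a line, precision is limited by their number and no test was made.

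Of 22206 probe sets, 19572 carried 1 symbol in the platform annotation and 2634 were unnamed here. Probe sets of the 55 genes with several were averaged, giving 19505 genes. Differences, counts and list medians were computed in Python 3.11.15 with pandas 2.3.3, and the counting was tested on simulated data.

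The 33 gene lists were written by hand, and they and the comparison were chosen with earlier results of these data known. The genes named were drawn from every epithelial or mesenchymal gene that differed, the up to 6 shared genes per list with the highest mean, the genes nearest the limits, the up to 3 largest differences per other list, and the 12 largest differences in each direction. Alternatives were quantile normalization, a common 75th percentile, other minimums and differences, the brightest probe set, and values below 4 raised to 4.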

Additional observations from a re-analysis of the deposited data

How the results depend on the processing

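Of the 84 epithelial and mesenchymal genes that differed, none changed direction under another normalization or summary. Quantile normalization left 83 at 2 or more units apart (without L1cam), a common 75th percentile 81 (without Dsp, L1cam and Patj), and the brightest probe set per gene and raising values below 4 to 4 left all 84. Quantile normalization moved the median difference of the counted genes from -0.14 to -0.01, and the common 75th percentile moved it to 0.09, the upper quartile being 0.23 higher in NHRI-HN2.

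Counts followed the definitions, which by construction change how many genes can pass. With a difference of 1 unit, 1356 genes were higher in M1-2 and 1883 in NHRI-HN2, 12 epithelial and 11 mesenchymal genes were shared, and 9 mesenchymal genes were higher in NHRI-HN2. With a difference of 3 units, 267 and 386 genes were higher in M1-2 and NHRI-HN2, and 2 epithelial genes were higher in M1-2. With a minimum of 10, 498 genes were higher in NHRI-HN2 and 10 mesenchymal genes were shared. With no minimum, 76 epithelial and 63 mesenchymal genes fell under the shared definition, most of them dim in both lines. No paired analysis was possible because each line has 1 array and no test was made. Signals near 3 have no detection call, which limits the size of differences against them.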

Other observations

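Several of the largest differences over all counted genes lay outside the lists. Cthrc1, a secreted protein of collagen triple helix repeats, was 15.12 in M1-2 and 2.43 in NHRI-HN2, with 2.62 in NHRI-HN1 and 3.05 in M2-3, the largest difference in favor of M1-2. Stmn2, a stathmin of neurons that acts on microtubules, was 14.96 and 3.35, with 4.49 and 4.46 in the relatives. Tnfrsf11b, the decoy receptor osteoprotegerin, was 15.47 and 6.07, and Vnn1, a pantetheinase, was 11.82 and 2.69. These 4 genes were bright in M1-2 alone. Igfbp4, which binds insulin-like growth factors, was 16.91 and 7.95, with 12.18 in NHRI-HN1 and 7.82 in M2-3.

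In favor of NHRI-HN2, Serpinb5, the epithelial serpin maspin, was 2.87 in M1-2 and 14.10 in NHRI-HN2, with 2.84 in NHRI-HN1 and 15.48 in M2-3. Ckmt1, a mitochondrial creatine kinase, was 2.26 and 12.66, Gsta3, a glutathione transferase, was 3.99 and 13.73, Car12, a membrane carbonic anhydrase, was 3.22 and 12.79, and Ccdc3 was 3.34 and 12.99. For each of these 5 genes both lines of the second tumor were above 12 and both lines of the first below 5.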
